A study of Mus musculus with 12 samples.

Results

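The genes described here act at the first steps of T-cell receptor signalling: the kinases *Lck*, *Fyn*, *Zap70* and *Txk*, the adaptors *Lat* and *Lcp2*, and the regulators *Csk* and *Ptprc*. They were chosen as a list of 8 gene symbols, and every probe set that the platform annotation assigns to 1 of these symbols alone was taken. This gave 13 probe sets for 7 of the 8 genes, of 12422 probe sets that are not hybridization controls. No probe set carried *Lck* as its single symbol, so *Lck* expression was not analysed here. None of the tested members passed the test in any comparison, although the *Fyn* signal was lower in both MED23 null mice than in all 4 control mice before and after stimulation. Of all 9478 tested probe sets none passed between genotypes either, and 0.148% and 0.0317% passed for induction in control and null mice. Both null mice lay below all 4 controls in 8.44% of all probe sets before stimulation and in 8.61% after it.

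When the T-cell receptor is engaged, Src-family kinases phosphorylate the tyrosine motifs of the CD3 chains, ZAP70 docks there and is activated, and ZAP70 in turn phosphorylates LAT and SLP-76 (the product of *Lcp2*), on which phospholipase C and the activators of RAS assemble. The RAS, RAF, MEK and ERK cascade lies downstream of these steps, and MED23, which belongs to the Mediator complex, is known for its part in transcription at the end of that cascade. CSK and CD45 (the product of *Ptprc*) set the activity of the Src-family kinases from opposite sides. Levels of these transcripts therefore bear on whether the machinery upstream of MED23 target genes differed between genotypes. An mRNA array does not measure the phosphorylation by which these proteins act.

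Total thymocytes came from female mice, 6 to 7 weeks old, on a C57Bl/6 x 129Sv (F1) background. The 3 genotypes were *Med23*+/+;*Lck-Cre*, which carries the transgene and wild-type *Med23*, *Med23*flox/flox, which carries the conditional alleles and no transgene, and MED23 null, which is *Med23*flox/flox;*Lck-Cre* and carries both. After a rest of 4 h, the thymocytes from a mouse were split and cultured for 3 h, with no stimulus (mock) or with αCD3 antibody bound to the plate, so that 2 mice per genotype gave 12 arrays. The transgene is driven by the promoter of *Lck* and acts from a late double negative stage onwards, so earlier thymocytes and cells outside the T lineage keep their *Med23* alleles.

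Each value is a MAS5 signal, on a linear scale, from Affymetrix murine genome arrays (Version 2), and tests were run with limma on log2(signal + 50) over 9478 probe sets that reached a mean of 100 in at least 1 of the 6 conditions. Of the 13 member probe sets 12 did so. The exception, *Ptprc* 101297_at, had signals of 2.1 to 47.4 and is not tested here. A log2 difference on this scale understates the change of a weak probe set. The precision is limited by how many arrays there are, and the replicate is the mouse.

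The *Med23* probe set had mock signals of 424 and 368 in the *Lck-Cre* mice, 288 and 381 in the *Med23*flox/flox mice and 268 and 207 in the MED23 null mice. Both null arrays lay below all 4 controls without passing the test (log2 difference -0.53, limma adjusted p = 0.621), and whether its probes lie in the deleted exons is not known. All 10 measured T-cell receptor and thymocyte markers were detected, with medians over the 12 arrays from 904 (*Cd2*) to 19886 (*Cd8b1*). Summed signals of marker lists differed between genotypes in mock-treated cells. For these 10 T-cell markers the sum was 66619.8 to 72813 in control and 62356 to 63684 in null mice, without overlap and lower in null cells. Among them *Cd8b1* (22064.5 to 23326 in control and 15426 to 18704 in null mice), *Cd2* and *Cd5* were lower without overlap. *Cd4* was higher in null mice (4965 to 5374, against 3959 to 4513), and the other genes of this list overlapped. For 5 measured of 6 double positive markers the sum was 54730.1 to 59625 in control and 43477 to 47141 in null mice, and for 7 of 9 mature single positive markers 8371 to 12013 and 4492 to 4968. In the double positive list *Cd1d1* and *Ptcra* overlapped between control and null mice, and in the mature single positive list *Il7r* did. For 5 of 7 NK and cytotoxic markers the sum was 1415 to 1967 and 3801 to 5385, most of it the signal of *Gzma*, a granzyme (1018 to 1382 in control and 3352 to 4825 in null mice). *Klrd1* and *Prf1* overlapped between the genotypes, *Gzmb* was lower in null mice (32.5 to 91.1, against 96.0 to 115.9), and *Ncr1*, which defines NK cells, had a median of only 15.1. The other lists overlapped between control and null mice, with sums for erythroid markers (4 of 6) of 6496 to 16946 and 15019 to 37374. B cell markers (9 of 10) were at 3035 to 3501 and 3066 to 3866, myeloid markers (9 of 12) at 2251 to 4029 and 3702 to 4022, and thymic epithelial markers (6 of 7) at 279.6 to 402 and 284 to 364. The part of these differences in the results below was not tested, and in RNA of whole thymocytes fewer cells of a type and less RNA per cell cannot be told apart. By flow cytometry the paper found the thymic double negative, double positive and single positive shares normal in mice of the null genotype. In isolated CD4 single positive null thymocytes it found less *Klf2* and *Cd52* mRNA. The αCD3 array of *Med23*flox/flox mouse 1 stood apart, with a lower quartile of 85.2 against at most 58.2 on the other arrays. Some values are also given without it, but not every value that moves when it is left out.

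*Fyn* encodes a Src-family kinase that acts beside LCK in thymocytes. In mock-treated cells its signals were 672 and 771 in the *Lck-Cre* mice, 542 and 808 in the *Med23*flox/flox mice, and 511 and 528 in the MED23 null mice. After αCD3 they were 1015 and 898, 747 and 1066, and 554 and 567. Neither null array reached any control array in either treatment, narrowly in mock-treated cells, where the lowest control was 542, and with a wide gap after αCD3.

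After αCD3 the mean *Fyn* signal of the control mice was 931 ± 142 (SD, n = 4), and that of the null mice was 560.3 ± 9.24 (SD, n = 2). The log2 difference was -0.67 (95% interval -1.14 to -0.21). The unadjusted p was 0.0113, and limma's adjusted p of 0.639 did not pass. The difference was -0.72 against the *Lck-Cre* mice and -0.63 against the *Med23*flox/flox mice, which share the same null arrays, whereas the 2 control genotypes differed from each other by 0.09 (95% interval -0.50 to 0.68). In mock-treated cells the difference from all controls was -0.38 (95% interval -0.83 to 0.07, limma adjusted p = 0.712). These comparisons rest in part on *Med23*flox/flox mouse 2. Without it, null minus *Med23*flox/flox went from -0.32 to -0.06 in mock-treated cells and from -0.63 to -0.39 after αCD3, while *Lck-Cre* minus *Med23*flox/flox became 0.38 and 0.33.

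Within each mouse, αCD3 over mock for *Fyn* was 1.51 and 1.17 in the *Lck-Cre* mice, 1.38 and 1.32 in the *Med23*flox/flox mice, and 1.08 and 1.07 in the null mice. All 4 control ratios lay above both null ratios. The mean was 1.34-fold ± 0.143 (SD, n = 4) in control and 1.08-fold ± 0.00687 (SD, n = 2) in null thymocytes. On the log2 scale the difference in induction was -0.29 with a 95% interval from -0.78 to 0.19 (limma adjusted p = 1.00), which includes no difference. The 2 probe sets of single genes whose signals followed *Fyn* most closely over the 12 arrays were those of *Cd2* (Pearson r = 0.924) and *Acot9* (r = 0.917). The arrays share mice and treatment, so these values are a description.

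Bases upstream of *Fyn* and *Zap70* are printed because these are the kinases whose signals are set out most fully here, and because ETS-family factors such as ELK1, which work with MED23, bind an ETS core. Each line gives the 250 bases before an annotated start, from RefSeq on GRCm38.p6, plus strand, 5′ to 3′, with any motif match in capitals.
Fyn chr10:39369549-39369798: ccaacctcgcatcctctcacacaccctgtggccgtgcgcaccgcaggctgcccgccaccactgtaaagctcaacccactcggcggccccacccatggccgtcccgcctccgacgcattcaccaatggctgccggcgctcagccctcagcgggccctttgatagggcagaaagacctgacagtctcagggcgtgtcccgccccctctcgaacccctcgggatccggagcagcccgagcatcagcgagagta
Zap70 chr1:36761548-36761797: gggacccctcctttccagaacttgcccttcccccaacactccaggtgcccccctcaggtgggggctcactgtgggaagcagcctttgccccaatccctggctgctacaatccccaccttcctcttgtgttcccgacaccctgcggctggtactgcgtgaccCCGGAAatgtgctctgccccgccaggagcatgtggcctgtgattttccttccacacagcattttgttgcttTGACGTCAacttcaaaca
The motifs searched on both strands were an ETS core (CCGGAA), an EGR site (GCGNGGGCG), a MEF2 site (CTA and TAG with 4 bases between them), an AP-1 site (TGANTCA), a cAMP response element (TGACGTCA) and a RUNX site (TGTGGT). RefSeq gives 3 starts of *Zap70*, and the sequence at the first is shown because it held matches. It held an ETS core that begins 89 bases before the start and a cAMP response element that begins 18 bases before it. The windows at the other 2 starts of *Zap70* held neither, and the *Fyn* sequence held no match to any of the letters. Over windows of 300 bases, which run to 50 bases past the start, 1 of 14 windows of the 8 genes held the ETS core and 14.9% of all 32851 windows did. For the cAMP response element the numbers were 1 of 14 and 1.79%, and for the RUNX site 4 of 14 and 16.8%. No window of the 8 genes held the EGR, MEF2 or AP-1 letters.

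*Zap70* encodes the kinase recruited to the phosphorylated CD3 chains and was measured by 3 probe sets. For 93662_s_at, mock signals were 4765 and 4613 in the *Lck-Cre* mice, 4201 and 4629 in the *Med23*flox/flox mice, and 4208 and 3892 in the null mice. After αCD3 they were 6008 and 6796, 4462 and 6458, and 4929 and 5608. The signal was above mock in 6 of 6 mice, and null and control arrays overlapped in both treatments. After αCD3 the overlap came only from the *Med23*flox/flox mouse 1 array, at 4462, which stands apart. The other controls lay above both null arrays. Without that mouse the log2 induction in controls went from 0.36 to 0.45. The mean ratio was 1.30-fold ± 0.180 (SD, n = 4) in control and 1.31-fold ± 0.191 (SD, n = 2) in null thymocytes. The log2 difference in induction was 0.01 (95% interval -0.54 to 0.56), and neither induction passed (limma adjusted p = 0.594 in control and 0.999 in null mice).

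For *Zap70* 93661_at the mock signals were 2279.6 and 2291 in the *Lck-Cre* mice, 2273 and 2178 in the *Med23*flox/flox mice, and 2075 and 1777 in the null mice. The null arrays lay below all controls by a log2 value of -0.23 (95% interval -0.56 to 0.11, limma adjusted p = 0.773). After αCD3 the signals were 3358 and 3291, 1908 and 3241, and 1937 and 2606, so that the *Med23*flox/flox mouse 1 array, at 1908, was the lowest of all 6 and far from the other controls. With that array left out, the null minus control difference after αCD3 went from -0.35 to -0.54 (limma adjusted p = 0.575), and with that mouse left out the induction in controls went from 0.34 to 0.54 (limma adjusted p = 0.505), so that neither passed. The difference after αCD3 was -0.14 without MED23 null mouse 1 and -0.56 without MED23 null mouse 2. Over the 12 arrays these probe sets of *Zap70* followed each other (Pearson r = 0.908).

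The third *Zap70* probe set, 93663_r_at, went another way. The suffix _r_at marks a probe set for which Affymetrix relaxed its design rules. Its mock signals ran from 89.8 to 593 over the 6 mice and its control ratios of αCD3 to mock from 0.488 to 2.78, against 2.15 and 3.15 in the null mice. After αCD3 it was higher in both null mice (533 and 478) than in all 4 controls (212 to 345), a log2 difference of 0.78 (95% interval 0.27 to 1.29) that did not pass (limma adjusted p = 0.605). It also separated the 2 control genotypes in mock-treated cells, at -1.49 for *Lck-Cre* minus *Med23*flox/flox. That size and the control ratio of 2.78 rest in part on the weak mock signal of 89.8 in *Lck-Cre* mouse 1. The 3 probe sets thus disagree in sign after αCD3.

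*Txk* encodes a TEC-family kinase that acts near phospholipase C. For 104679_at the mock signals were 2619.5 and 2431 in the *Lck-Cre* mice, 2343 and 2328 in the *Med23*flox/flox mice, and 1917 and 1844 in the null mice. Both null arrays lay below all controls, with means of 1880.5 ± 52.1 (SD, n = 2) and 2430.5 ± 134 (SD, n = 4). The log2 difference was -0.36 (95% interval -0.69 to -0.03), with an unadjusted p of 0.0369 and a limma adjusted p of 0.641. Against the *Lck-Cre* mice it was -0.42 and against the *Med23*flox/flox mice -0.31.

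After αCD3 the *Txk* signals of this probe set were 2344 and 2471, 1841 and 1794, and 1714 and 2187. The null arrays now overlapped the *Med23*flox/flox arrays, and the log2 difference from all controls was -0.11 (95% interval -0.62 to 0.41). The ratio of αCD3 to mock averaged 0.867-fold ± 0.114 (SD, n = 4) in control thymocytes and was below 1 in 3 of 4 control mice, while the null mice gave 0.894 and 1.19. The difference in induction was 0.25 (95% interval -0.30 to 0.80).

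The other *Txk* probe set, 162137_f_at, was much weaker, at 117 to 281. The suffix _f_at marks probes that also match other members of a sequence family. In mock-treated cells its null signals of 281 and 231 lay above all controls (117 to 178), a log2 difference of 0.64 (95% interval 0.22 to 1.07) and so of opposite sign to 104679_at. After αCD3 the difference was -0.27 (95% interval -0.82 to 0.27). The difference in induction was -0.92 (95% interval -1.62 to -0.21, unadjusted p = 0.0183, limma adjusted p = 0.947), with null ratios of 0.697 and 0.557 and control ratios from 0.942 to 2.05. The difference of *Txk* between genotypes therefore depends on which probe set is read.

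**Figure D1:**
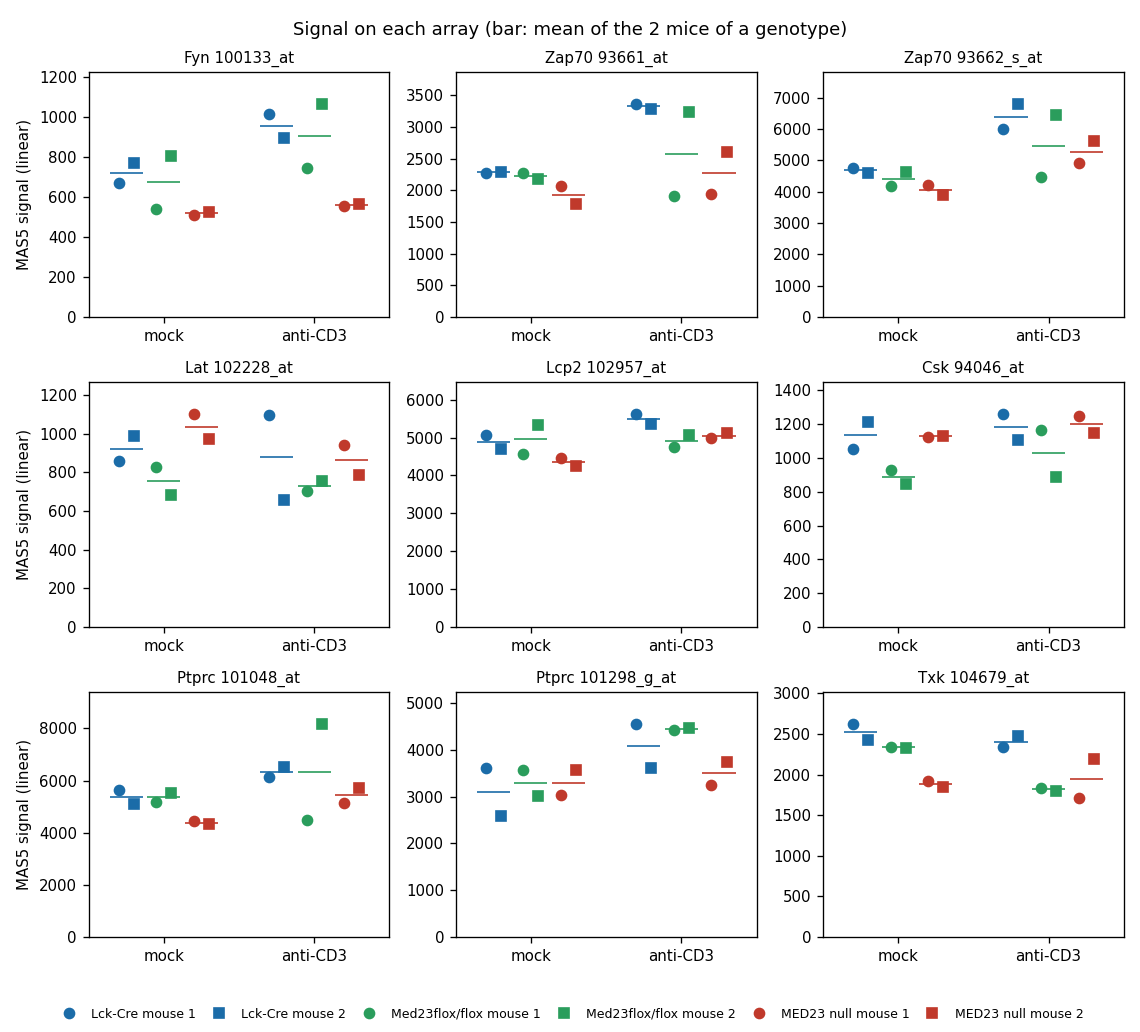
MAS5 signal (linear axis from 0) of the 9 member probe sets with a median of at least 500 on each of the 12 arrays, with 1 point per mouse and treatment and a bar at the mean of the 2 mice of a genotype. For *Fyn* both MED23 null arrays sit below all control arrays in mock-treated cells and after αCD3, and for *Txk* 104679_at and *Ptprc* 101048_at in mock-treated cells.

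*Lat* encodes the membrane adaptor that ZAP70 phosphorylates. Its mock signals were 859 and 988 in the *Lck-Cre* mice, 828 and 683 in the *Med23*flox/flox mice, and 1101 and 973 in the null mice, so that the null arrays were among the 3 highest. After αCD3 they were 1098 and 659, 702 and 756, and 942 and 785, and the groups overlapped. The null minus control difference was 0.30 in mock-treated cells (95% interval -0.13 to 0.73) and 0.12 after αCD3 (95% interval -0.45 to 0.69). In mock-treated cells it was 0.44 against *Med23*flox/flox and 0.16 against *Lck-Cre*, and the 2 control genotypes themselves differed by 0.28, with no overlap. Ratios of αCD3 to mock ran from 0.667 to 1.28 in control mice and were 0.856 and 0.807 in the null mice.

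*Lcp2*, which encodes the cytosolic adaptor SLP-76, varied least among the member probe sets, with a coefficient of variation of 8.19% over the 12 arrays and a highest signal 1.32 times the lowest. Mock signals were 5059.5 and 4699.8 in the *Lck-Cre* mice, 4568 and 5339 in the *Med23*flox/flox mice, and 4458 and 4246 in the null mice. The null arrays lay just below all controls there, a log2 difference of -0.17 (95% interval -0.52 to 0.17), and among them after αCD3, at 4989 and 5117 with controls from 4751 to 5615 (-0.04, 95% interval -0.43 to 0.35). The ratio of αCD3 to mock averaged 1.06-fold ± 0.0844 (SD, n = 4) in control and 1.16-fold ± 0.0608 (SD, n = 2) in null thymocytes. In both treatments the intervals thus keep the *Lcp2* difference between null and control cells well below a log2 value of 1.

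*Csk* encodes the kinase that phosphorylates the inhibitory tail of the Src-family kinases. For 94046_at the mock signals were 1055 and 1214 in the *Lck-Cre* mice, 932 and 844 in the *Med23*flox/flox mice, and 1124 and 1132 in the null mice. The null arrays lay between the 2 *Lck-Cre* arrays and above both *Med23*flox/flox arrays, at a log2 difference of 0.00 from *Lck-Cre* and 0.33 from *Med23*flox/flox, while *Lck-Cre* minus *Med23*flox/flox was 0.33. After αCD3 the difference from all controls was 0.12 (95% interval -0.34 to 0.59), and αCD3 over mock averaged 1.10-fold ± 0.154 (SD, n = 4) in control and 1.06-fold ± 0.0672 (SD, n = 2) in null thymocytes. The second *Csk* probe set, 162504_at, ran from 31.4 to 222 and correlated with the first at r = -0.533. Its difference of -0.82 after αCD3 (null 33.8 and 53.8, controls 87.9 to 169) rests on null signals below 100, so its size cannot be read.

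*Ptprc* encodes CD45, the phosphatase that removes the inhibitory phosphate from the Src-family kinases and is spliced into several isoforms. For 101048_at the mock signals were 5654 and 5112 in the *Lck-Cre* mice, 5172 and 5540.4 in the *Med23*flox/flox mice, and 4437 and 4347 in the null mice. Both null arrays lay below all controls, with means of 4392 ± 63.5 (SD, n = 2) and 5369.7 ± 268 (SD, n = 4) and a log2 difference of -0.29 (95% interval -0.61 to 0.04, limma adjusted p = 0.699). The 2 control genotypes differed by 0.01. After αCD3 the null signals of 5156 and 5714 fell within the control range of 4479 to 8161, whose lowest value is again the *Med23*flox/flox mouse 1 array. Without that array the difference went from -0.18 to -0.34 (limma adjusted p = 0.746), and without *Med23*flox/flox mouse 2, the highest control, to -0.05. Against *Med23*flox/flox alone it was -0.15, and -0.58 or 0.27 without mouse 1 or mouse 2 of that genotype, so that its sign after αCD3 is not settled.

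For *Ptprc* 101298_g_at, mock signals overlapped (2597 to 3618 in control, 3027 and 3567 in null mice), with a log2 difference of 0.05. After αCD3 they were 4548 and 3609 in the *Lck-Cre* mice, 4420.5 and 4472 in the *Med23*flox/flox mice, and 3259.6 and 3747 in the null mice. Induction averaged 1.34-fold ± 0.114 (SD, n = 4, lowest 1.24) in control and 1.06-fold ± 0.0188 (SD, n = 2) in null thymocytes, without overlap between the mice, like *Fyn*. The log2 difference in induction was -0.33 (95% interval -0.80 to 0.14), and for 101048_at it was 0.10 (95% interval -0.53 to 0.74). Without *Med23*flox/flox mouse 1 the value for 101048_at became -0.03. These probe sets of *Ptprc* thus placed the null mice differently, the first in mock-treated cells and the second in the response.

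**Figure D2:**
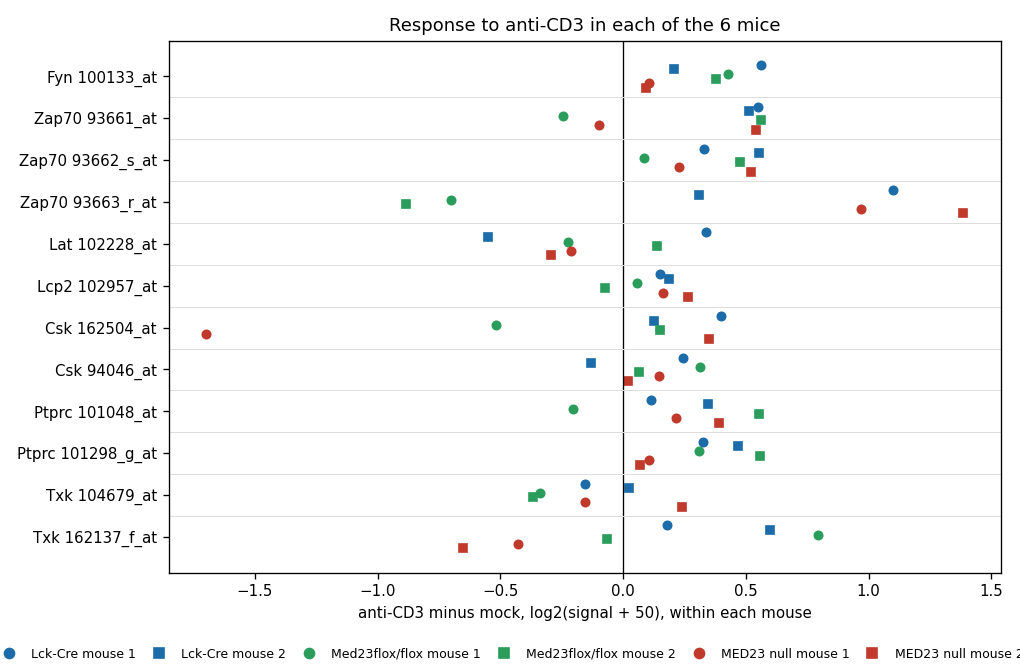
Log2 difference between αCD3 and mock signal within each of the 6 mice for the 12 tested member probe sets, with 50 added to each signal; colours give the genotype and shapes the mouse. For *Fyn* and *Ptprc* 101298_g_at all 6 points lie above 0 and both MED23 null points lie to the left of the 4 control points, whereas for *Zap70* 93662_s_at the null points lie among the controls.

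In control thymocytes 0 of 12 probe sets were called (limma, adjusted p under 0.05), while 0.148% of all 9478 probe sets were, and 3 of 12 had an unadjusted p under 0.05, against 7.78% of all. These 3 were *Fyn*, *Zap70* 93662_s_at and *Ptprc* 101298_g_at, with log2 inductions of 0.39 (95% interval 0.12 to 0.67), 0.36 (0.05 to 0.68) and 0.42 (0.14 to 0.69), and they were also the 3 with the same sign in all 4 control mice, a pattern seen in 17.8% of all probe sets. All 3 were higher (9.16% of all) and 0 were lower (8.68% of all). The median induction was 0.16 over the members and 0.00 over all probe sets.

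In MED23 null thymocytes 0 of 12 members were called (0.0317% of all), 1 of 12 had an unadjusted p under 0.05 (5.36% of all), and the median log2 induction was 0.09 against -0.02 over all. Both null mice moved the same way in 9 of 12 (49.5% of all), 7 of them higher (23.2% of all) and 2 lower (26.3% of all). Of the difference in induction 0 of 12 were called (0% of all; unadjusted, 1 of 12 and 5.13% of all). In 3 of 12 the null and control mice did not overlap (13.5% of all), all 3 with the smaller value in the null mice (7.42% of all) and 0 with the larger (6.06% of all). The 3 were *Fyn*, *Ptprc* 101298_g_at and *Txk* 162137_f_at. RNA quality can be read from actin, whose 3′ probes over its 5′ probes gave 1.90 and 1.61 on the null αCD3 arrays against 1.35 to 1.41 on those of the controls. The same ratio for *Gapdh* was 0.636 and 0.766 on these null arrays against 0.599 to 0.648, with overlap. The part of RNA quality in these values was not tested.

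Between genotypes in mock-treated cells 0 of 12 were called (limma, 0% of all; unadjusted, 2 of 12 and 7.4% of all). The groups did not overlap in 6 of 12 (17.7% of all). In 5 of these both null arrays were the lower (8.44% of all), and in 1, *Txk* 162137_f_at, the higher (9.27% of all). The 5 belong to *Fyn*, *Zap70*, *Lcp2*, *Ptprc* and *Txk*, their log2 differences ran from -0.38 to -0.17, and of these 5 intervals that of *Txk* alone left out 0. The median difference was -0.17 over the members and 0.01 over all probe sets. The summed T-cell, double positive and mature single positive markers were also lower in the null mice on these arrays, as given above, and their part in these differences was not tested.

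After αCD3 0 of 12 were called (0% of all), and 3 of 12 had an unadjusted p under 0.05 (6.16% of all), namely *Fyn*, *Zap70* 93663_r_at and *Csk* 162504_at, which are also the 3 without overlap (15.5% of all), 1 higher (6.9% of all) and 2 lower (8.61% of all) in null cells. The median was -0.17 over the members and -0.01 over all. Over all αCD3 arrays the summed double positive markers were 49021 to 55110.3 in control and 44515 to 48884 in null mice, and the mature single positive markers 7507 to 9927 and 4692 to 5015. Higher in null mice without overlap were the erythroid markers (6527 to 15674 in control and 15981 to 38493 in null mice). The NK and cytotoxic markers were too (1764 to 2122 and 3794 to 4850), and the other lists overlapped. The actin ratio given above was higher in null mice, while that of *Gapdh* overlapped. The part of these in the differences was not tested. For each control genotype taken alone no member was called in either treatment (0% of all in each). An unadjusted p under 0.05 was found against *Lck-Cre* in 2 of 12 after mock treatment (7.3% of all) and 3 of 12 after αCD3 (4.83% of all), and against *Med23*flox/flox in 2 of 12 (7.34% of all) and 3 of 12 (7.72% of all). Null arrays did not overlap the *Lck-Cre* arrays in 7 of 12 after mock treatment (38.4% of all), 6 of them lower in null cells (18.6% of all), and in 8 of 12 after αCD3 (36.3% of all), 7 of them lower (18.5% of all). Against *Med23*flox/flox this held for 9 of 12 (37.5% of all), 6 of them lower (17.8% of all), and 5 of 12 (36.5% of all), 3 of them lower (20.2% of all). *Lck-Cre* and *Med23*flox/flox themselves were apart in 6 of 12 after mock treatment (34.6% of all) and 3 of 12 after αCD3 (35.6% of all), with an unadjusted p under 0.05 in 1 of 12 (5.64% of all) and 0 of 12 (5.93% of all).

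**Figure D3:**
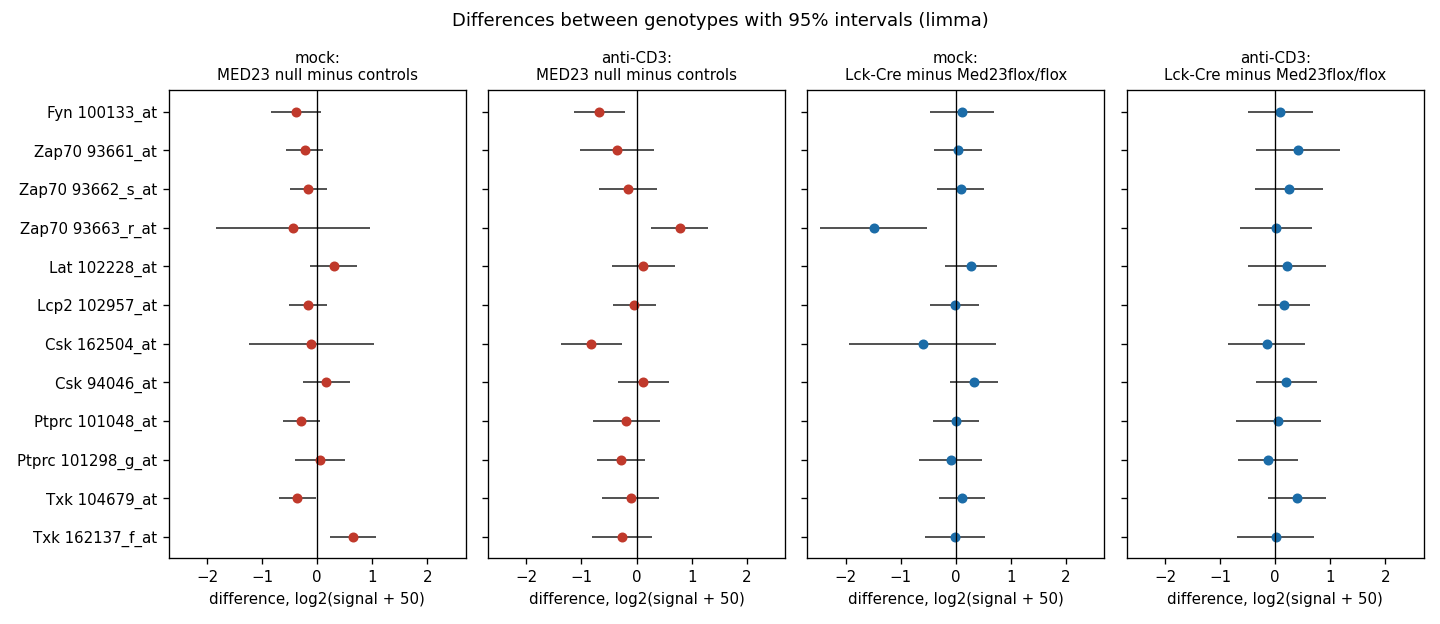
Log2 difference between genotypes, on the log2(signal + 50) axis, for the 12 tested member probe sets, with points at the estimate and lines for the 95% interval from limma. The panels show MED23 null minus control mice and, as the background between controls, *Lck-Cre* minus *Med23*flox/flox, in mock-treated cells and after αCD3; *Fyn* lies at -0.38 and -0.67 in the null panels and at 0.11 and 0.09 in the control panels.

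Across the 12 arrays *Ptprc* 101048_at followed 2 of the 3 *Zap70* probe sets, with r = 0.866 for 93661_at and 0.875 for 93662_s_at against -0.0646 for 93663_r_at, and no other pair of probe sets from different member genes had r above 0.8. The closest single-gene probe set to *Zap70* 93662_s_at outside the list was that of *Lrrc58* (r = 0.963), and that of *Cytip* was closest to *Ptprc* 101048_at (r = 0.947) and second for *Zap70* (r = 0.927). For *Txk* 104679_at it was *Cyfip2* (r = 0.916), for *Csk* 94046_at *Bola3* (r = 0.903), for *Lat* *Faf1* (r = 0.894) and for *Lcp2* *Atg16l1* (r = 0.861). The arrays share mice and treatments, so these are descriptions over 12 arrays.

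Other genes of the pathway were read from a list of 89 kinases, adaptors, exchange factors, inhibitors and phosphatases, of which 60 had a probe set and 55 were tested, by 68 probe sets. None was called higher or lower in any of the 11 comparisons by limma. In control thymocytes 9 of the 68 were above mock (9.16% of all probe sets) and 6 below it (8.68% of all) in all 4 mice. These were 4 higher and 3 lower of 19 probe sets of adaptors and scaffolds, 3 and 0 of 14 of inhibitors and phosphatases, 1 and 2 of 18 of effector enzymes and exchange factors, 0 and 1 of 13 of kinases, and 1 and 0 of 4 of other Src-family kinases. The largest was *Shc1*, an adaptor to the RAS pathway, at a log2 value of 0.87, but its mock signals were 65.8 and 85.1 in the *Med23*flox/flox mice, so that its size cannot be read. A stronger probe set of *Shc1* was at -0.19, the opposite sign. *Ptpn6*, which encodes the inhibitory phosphatase SHP-1, was measured well above that level.

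*Ptpn6* had mock signals of 667 and 626 in the *Lck-Cre* mice, 641 and 875 in the *Med23*flox/flox mice, and 613 and 612 in the null mice. After αCD3 they were 1062 and 1230.1, 1169.9 and 1340.3, and 836 and 926. The signal was above mock in 6 of 6 mice, with a log2 induction of 0.74 in control (limma adjusted p = 0.104) and 0.49 in null thymocytes. After αCD3 the null arrays were the lowest 2 of the 6 (-0.42, limma adjusted p = 0.795).

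*Sh3bp2*, an adaptor that binds ZAP70, had log2 inductions of 0.78 in control and 0.65 in null thymocytes, neither called. The null value rests in part on a mock signal of 62.2 in MED23 null mouse 2. *Nck1*, an adaptor that links SLP-76 to the cytoskeleton, stood at -0.97 in control (limma adjusted p = 0.0936) and 0.31 in null thymocytes, but its signals were 11.6 to 25.4 on the control αCD3 arrays and 44.0 to 120.3 on the control mock arrays, so the sizes cannot be read. *Pik3cd*, which encodes a catalytic subunit of phosphoinositide 3-kinase, was at -0.42 in control cells, and at -0.25 without *Med23*flox/flox mouse 1. A stronger probe set of *Pik3cd* was at -0.16, without 1 sign in all control mice. *Pstpip1* was at -0.35. With 1 sign in both null mice, the largest inductions were *Vav2*, an exchange factor, at 0.75, *Sh3bp2*, and *Dok2*, an inhibitory adaptor, at 0.53. The mock signals of *Vav2* were 80.0 and 227 in the null mice and those of *Sh3bp2* 147 and 62.2, so that neither size can be read. On the lower side were *Shc1* at -0.85, *Dok1* at -0.54 and *Sos2* at -0.46, and the stronger *Shc1* probe set was at -0.12.

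In mock-treated cells the null minus control differences without overlap that lay furthest from 0 were those of *Shc1*, *Blk* and *Plcg2* on the higher side. *Blk*, a Src-family kinase of B cells, was at 0.69, which rests in part on a weak mock signal of 98.1 in *Med23*flox/flox mouse 2. *Plcg2* had signals of 19.4 to 85.1 on the mock arrays, and the *Shc1* probe set rests on the weak *Med23*flox/flox signals given above, so that neither size can be read. For that *Shc1* probe set the 2 control genotypes themselves differed by 1.36 (limma adjusted p = 0.405), and the other, stronger *Shc1* probe set was at 0.04. On the lower side were *Inpp5b* at -0.22, *Cdc42* at -0.20 and *Ptpn6* at -0.17.

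After αCD3 those furthest from 0 on the higher side were *Nck1*, whose size cannot be read, *Src* at 0.68 and *Unc119* at 0.60. Without the αCD3 array of *Med23*flox/flox mouse 1, which was the lowest control for both, *Src* was at 0.50 and *Unc119* at 0.40. On the lower side were *Sh3bp2* at -0.54, *Ptpn2* at -0.50 and *Ptpn6*. Over the 68 probe sets the median difference was -0.01 in mock-treated cells and 0.05 after αCD3.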

How the data were processed

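Total thymocytes of 6 mice were measured on 12 Affymetrix murine genome arrays (Version 2). The authors computed intensities per probe set as MAS5 signals on a linear scale (named in the submitters' processing notes; its version is not given in the sources used here) and analysed them in Spotfire; each array was already scaled. Here every array was set to the 2% trimmed mean of the first *Lck-Cre* mock array, which moved values by at most 0.00603%, and log2(signal + 50) was used.

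Of 12488 probe sets, 66 hybridization controls were left out, and 9478 reached a mean of 100 in at least 1 condition. Gene symbols come from the platform annotation: 10855 probe sets had 1 symbol, 10839 of them matched to RefSeq (GRCm38.p6) by Entrez ID, 396 had several and 1237 none. Induction was the difference between the 2 arrays of a mouse, fitted with means for control and null mice that share a spread (4 residual degrees of freedom). Both arrays come from 1 thymus, and their deviations from the group means correlated at 0.0940, 0.149 and 0.0610 in the 3 genotypes. Arrays of different genotypes with the same replicate number and treatment gave -0.0110 to 0.116. Genotypes were compared within each treatment, null against all controls and, in a fit with 3 means (3 residual degrees of freedom), against each control genotype. limma 3.58.1 in R 4.3.3 was used with Benjamini-Hochberg adjustment over the 9478 probe sets and a threshold of 0.05, and the fits were tested on simulated data. Intervals are 95% limits for 1 probe set, not adjusted for the number tested. Figures were drawn with Python 3.11.15 and matplotlib 3.10.9.

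Every member probe set is named. From the pathway list, up to 3 higher and 3 lower, those furthest from 0 without overlap, were taken for each main comparison. The likeness of patterns is Pearson r over the 12 arrays. The members and lists were chosen with earlier results of these data known. Promoter sequences matched all 8 genes, in 14 windows.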

Additional observations from a re-analysis of the deposited data

Results flagged for a closer look

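In 39 groups of 4 control values (13 probe sets in mock-treated cells, after αCD3 and for induction) the gap between an end value and its nearest neighbour was divided by the whole range and set against Dixon's critical value for 4 samples at the 95% level. Chance flags about 1 in 20 such groups. For *Zap70* 93661_at it was 0.849 in mock-treated cells, where *Med23*flox/flox mouse 2 was lowest, 0.937 after αCD3 and 0.939 for induction, where *Med23*flox/flox mouse 1 was lowest, the mouse whose αCD3 array stands apart from the other arrays. For *Ptprc* 101298_g_at after αCD3 it was 0.877, with *Lck-Cre* mouse 2 lowest. For *Ptprc* 101297_at in mock-treated cells it was 0.882, with *Lck-Cre* mouse 2 highest at a signal of 40.2, which is below the filter.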

How the results depend on the processing

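In none of the 11 comparisons was a member probe set called under any alternative, which were other pseudocounts (16 and 100), no signal filter or one of 200, 10% trimmed, median or quantile scaling, a variance trend, robust eBayes, each mouse left out, the αCD3 array of *Med23*flox/flox mouse 1 left out, other treatments of the mouse or replicate number, and a single control genotype for induction. Of 2257 recomputed member values 2255 kept their sign or had a main value below its standard error, for which a change of sign was not counted. Both exceptions were the weak *Csk* 162504_at without MED23 null mouse 1, whose log2 induction in null cells went from -0.67 to 0.35 and whose difference in induction went from -0.71 to 0.31; without null mouse 2 these were -1.70 and -1.74. Some of the 2257 values could not change sign, so their count is not a measure of stability. The variance trend, robust eBayes and the signal filters leave the log2 value as it is. Leaving out control mice does the same for induction in null mice, and leaving out null mice for induction in controls. Changes of sign that were not counted did occur. For the difference in induction, for example, they came in 6 of 19 alternatives for *Csk* 94046_at and 4 of 19 for *Zap70* 93662_s_at. Over all alternatives *Fyn* ranged from -0.77 to -0.61 in the null minus control difference after αCD3 and from -0.49 to -0.31 in mock-treated cells. *Txk* 104679_at in mock-treated cells ranged from -0.42 to -0.32.

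Counts over all probe sets moved more. The 14 inductions called in control cells became 42 with no replicate block, that is without pairing by mouse, 61 with the mouse as a random block, 33 with the filter of 200, 27 with the pseudocount of 100, 4 with a variance trend, 0 with either control genotype alone and 3 to 9 with 1 mouse left out; the 3 in null cells became 0 in the fit with no replicate block 0 with a single control genotype, 0 to 1 with 1 mouse left out and 1 to 3 under the others. A variance trend gave 2 calls in place of 0 between null and control mice in mock-treated cells and 5 after αCD3, and 3 between null and *Lck-Cre* mice in mock-treated cells. Mice of different genotypes share only a replicate number, and with it as a block no probe set was called between genotypes, as without it.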
